A study of Homo sapiens with 6 samples.

Results

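The knockdown libraries of this series differ in how far RIPK2 was lowered, and 4 of the 6 libraries are compared here on that ground. The deeper pair is siRIPK2_1 and siRIPK2_4, the libraries with the lowest RIPK2 level. The shallower pair is siRIPK2_2 and siRIPK2_3, which kept more of it. Genes were described where both values of one pair lay on one side of both values of the other, and 3577 of the 10653 genes with a mean of at least 5 CPM (counts divided by library size, with scaling between libraries, and expressed per 1000000) over these 4 libraries met that condition. That is about the share that dividing 4 libraries into 2 pairs gives on average. All 6 libraries came from U118, an established human glioma line that the labels call brain astroblastoma cells, and were made from poly(A)-selected RNA at day 2. The siRIPK2 libraries carry an siRNA knockdown of RIPK2, siNC is labelled with the genotype NC, and WT cells are wild type. Nothing in the labels tells if the 4 knockdown libraries used different siRNAs, different cultures or repeated transfections, and each control is a single library. Any p-value over these libraries therefore measures only the spread between them, which may be technical.

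RIPK2 is a serine/threonine kinase that binds the intracellular bacterial sensors NOD1 and NOD2. Ubiquitin ligases of the inhibitor of apoptosis family (XIAP, BIRC2 and BIRC3) build chains on it, and the kinase TAK1 and the IKK complex then pass the signal on to NF-kB and the MAP kinases. An siRNA lowers its target's mRNA to a degree that varies with the sequence and the transfection, so libraries of one knockdown can be ordered by what is left. BIRC5, or survivin, belongs by sequence to the inhibitor of apoptosis family, but in dividing cells it works in the chromosomal passenger complex with Aurora B. BIRC5 and most other genes that act in mitosis are transcribed from G2 onwards, and the MuvB core complex, through LIN54, binds the CHR element in many of their promoters.

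The pairs were chosen by the measured RIPK2 level, and the genes by the values of the same 4 libraries, so every difference between them is given as a description and without a test. Within a pair, values follow the library number. RIPK2, on chromosome 8 at positions 89757747 to 89791063 of GRCh38, stood at 3.86 and 4.32 CPM in the deeper pair, against 11.9 and 6.27 CPM in the shallower pair, with 43.4 CPM in siNC and 56.8 CPM in WT. As a share of the siNC level this was 8.89% in siRIPK2_1 and 9.94% in siRIPK2_4, against 27.3% in siRIPK2_2 and 14.4% in siRIPK2_3. The values rest on 153 and 157 counts in the deeper pair and on 488 and 283 counts in the shallower pair. The exact 95% Poisson intervals, which cover counting error only, ran from 3.67 to 5.05 CPM in siRIPK2_4 and from 5.56 to 7.04 CPM in siRIPK2_3, the closest libraries across the pairs. All 4 knockdown libraries lay far below both controls, and the nearest values across the pairs were 1.45-fold apart. Without siRIPK2_3 that distance widened to a log2 of -1.46, against -0.54 with all 4 libraries, so siRIPK2_3 is the library that keeps the pairs close.

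Total counts were 38798207 and 37243009 in the deeper pair, 39439406 and 45309423 in the shallower pair, 33540619 in siNC and 35782060 in WT, and between 13390 and 13823 genes had at least 10 counts. The libraries of a pair were no closer to each other than to those of the other pair. The SD of the log2(CPM + 1) difference over 14306 genes was 0.584 between siRIPK2_1 and siRIPK2_4 and 0.588 between siRIPK2_2 and siRIPK2_3, while it ran from 0.545 to 0.600 across the pairs. Of the glioma and astrocyte markers, VIM stood at 3813 to 7572 CPM and CD44 at 224 to 556 CPM over the 6 libraries. GFAP, the defining intermediate filament of astrocytes, reached 0.532 to 1.09 CPM, AQP4 was at 0 counts throughout and S100B at or below 0.0486 CPM, so those astrocyte markers were absent or nearly so. Summed levels were 19.5 and 21.9 CPM in the deeper pair against 24.4 and 16.4 CPM in the shallower pair for 3 neuronal genes, and 7.54 and 1.93 CPM against 6.78 and 2.13 CPM for 4 endothelial genes. Sums were 18.4 and 11.6 CPM in the deeper pair against 19.3 and 17.1 CPM in the shallower pair for 3 oligodendrocyte genes, and 4.74 and 3.93 CPM against 7.36 and 5.01 CPM for 4 epithelial genes. The macrophage and microglia markers PTPRC and AIF1 were at or below 0.110 CPM in every library, and CD68 made up most of the summed 143 and 149 CPM in the deeper pair, against 108 and 144 CPM in the shallower pair.

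Both values of the deeper pair lay above both of the shallower pair for 1874 genes, 17.6% of the 10653, and below them for 1703 genes, 16.0%. These shares are the background for every count of members over the 4 libraries, and 33.6% of genes separated the pairs in one direction or the other. Averaged over all ways to divide 4 libraries into 2 pairs, about the same share of genes separates. These totals are therefore not particular to the split by RIPK2. With 1 library left out fewer values have to be ordered, and the background became 32.5% higher and 31.6% lower without siRIPK2_1, 32.6% and 35.5% without siRIPK2_2, 35.8% and 30.5% without siRIPK2_3, and 35.1% and 33.6% without siRIPK2_4. Most of the distances were small. The nearest values across the pairs were a median of 1.12-fold apart in each direction, at least 1.5-fold apart for 117 higher and 99 lower genes, and at least 2-fold apart for 20 higher genes (0.188%) and 19 lower genes (0.178%). The genes at the edges show what the rule lets in. DNAL1 separated by the smallest distance, with 15.8 CPM in siRIPK2_1 against 15.8 CPM in siRIPK2_3, and CD33, with 22.1 CPM in siRIPK2_4 and 24.6 CPM in siRIPK2_1 against 24.6 CPM in siRIPK2_2, just failed to separate. By mean level, ATAT1 at 5.00 CPM was just inside the minimum and ZNF506 at 4.99 CPM just outside it.

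The controls, which took no part in the choice of genes, fell on every side of the pairs. Of the 1874 higher genes, 209 had both controls between the pairs, 289 had both on the deeper side and 461 had both on the shallower side. Among the 1703 lower genes these numbers were 176, 256 and 419. RIPK2 itself has both controls on the shallower side, a position that held for 24.6% of the higher and 24.6% of the lower genes. The separating genes also differed somewhat in structure from the rest. The higher genes had a median exon length of 5683 bases and a median GC content of 47.1%, the lower genes 4933 bases and 50.7%, and all genes tested 5327 bases and 48.7%. Removing a smooth trend of level on length and GC content in each library left 1908 higher and 1703 lower genes.

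The group in which most members separated the pairs was the G2/M and mitosis list, and some of its promoters are shown first because they carry an element that the group shares and that the selection of libraries did not use. In the RefSeq promoter table (GRCh38.p14, 250 bases before to 50 bases after each start), only the first listed promoter of each gene symbol was searched. The CHR letters TTTGAA, or TTCAAA on the other strand, occurred in 26 of the 40 listed G2/M genes with an entry, 65.0%. Over all 27305 promoters searched the share was 15.4%. The CCAAT box, searched as CCAAT or ATTGG, occurred in 32 of those 40, 80.0%, against 35.7% of all promoters. The CHR letters were found in 19 of the 31 promoters of members that separated the pairs and in 7 of the 9 promoters of members that did not, so both kinds of member carried them. Of the G2/M members higher in the deeper pair, 15 that can be shown here had the CHR letters within the last 120 bases before the start, and the 5 with the largest distance between the pairs are printed. They are KIF11 (chr10:92593010-92593129, plus strand), MKI67 (chr10:128126424-128126543, minus strand), HMMR (chr5:163460512-163460631, plus strand), CCNB2 (chr15:59105026-59105145, plus strand) and GTSE1 (chr22:46296750-46296869, plus strand). Each is read 5′ to 3′ and ends at the base before the start, and capitals mark the CHR and CCAAT letters on either strand.
KIF11: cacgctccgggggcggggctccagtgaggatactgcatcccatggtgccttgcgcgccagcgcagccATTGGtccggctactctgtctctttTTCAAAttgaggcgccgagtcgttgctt
MKI67: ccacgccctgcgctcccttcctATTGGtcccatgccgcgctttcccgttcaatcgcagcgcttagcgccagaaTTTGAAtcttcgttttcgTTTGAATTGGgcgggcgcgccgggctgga
HMMR: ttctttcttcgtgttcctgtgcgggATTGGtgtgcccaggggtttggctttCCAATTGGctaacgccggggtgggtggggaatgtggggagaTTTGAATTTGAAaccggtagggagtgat
CCNB2: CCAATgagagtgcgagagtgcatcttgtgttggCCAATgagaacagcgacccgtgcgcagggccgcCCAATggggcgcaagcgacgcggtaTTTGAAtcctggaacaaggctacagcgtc
GTSE1: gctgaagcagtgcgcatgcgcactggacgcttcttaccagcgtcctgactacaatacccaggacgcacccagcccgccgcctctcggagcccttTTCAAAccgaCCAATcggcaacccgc
MKI67 and HMMR each held the CHR letters at 2 places, and in MKI67 the one nearer the start runs into a CCAAT box on the other strand. The CHR stands nearer the start than every CCAAT box in KIF11, HMMR and CCNB2, whereas in GTSE1 the CCAAT box is the nearer. A match is a description of letters and not evidence of binding.

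Of the 48 G2/M and mitosis genes measured, 39 were higher in the deeper pair and 0 were lower, 81.2% against 17.6% of all genes. The list's median level was a log2 CPM of 7.0 and 7.13 in the deeper pair and 5.89 and 6.40 in the shallower pair, with 6.62 in siNC and 6.59 in WT. Over all 10653 genes the medians lay between 5.26 and 5.30. KIF11 (chromosome 10, 92593286 to 92655395), the kinesin that pushes spindle poles apart, stood at 87.2 and 78.7 CPM in the deeper pair, against 34.9 and 36.1 CPM in the shallower pair, 43.1 CPM in siNC and 60.0 CPM in WT. Both shallower libraries were below both controls and both deeper libraries above them, with nearest values 2.18-fold apart. In bulk RNA, fewer cells in mitosis and less mitotic RNA per cell cannot be told apart, here or for the other cell-cycle genes.

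**Figure D1:**
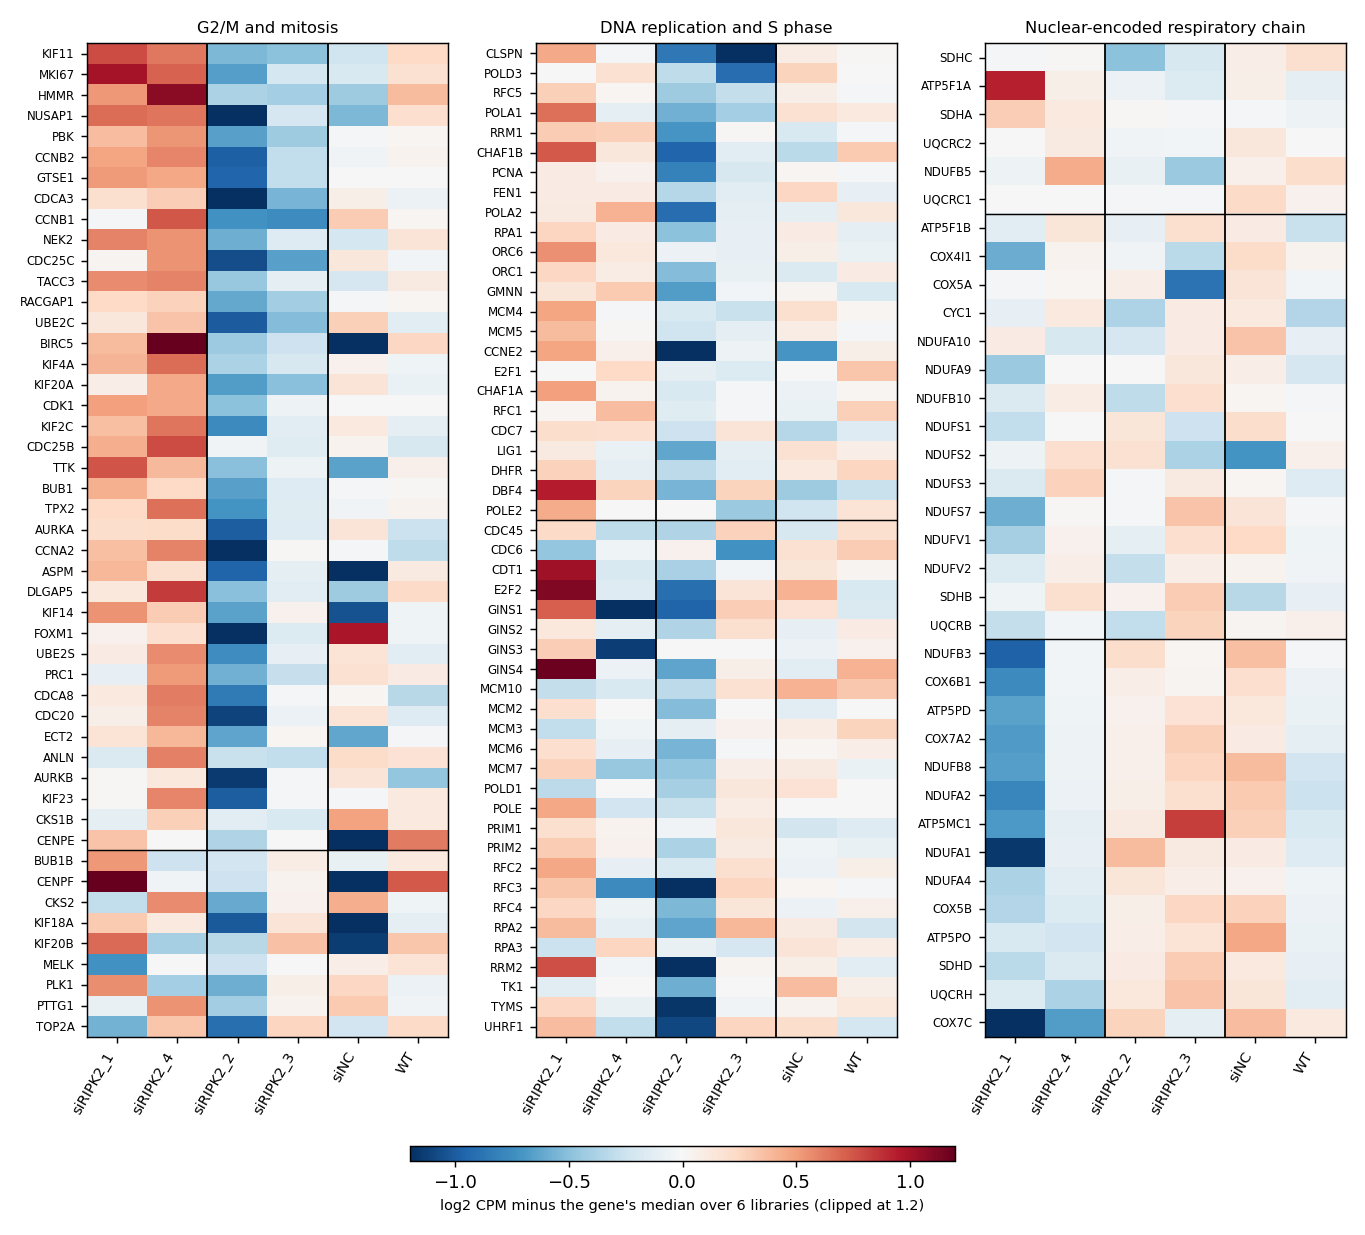
Level of each member of 3 gene lists in the 6 libraries, as log2 CPM minus the gene's median over the 6 libraries and clipped at 1.2; columns run from the deeper pair through the shallower pair to siNC and WT, and horizontal lines part the members higher in the deeper pair, those that overlap and those lower. In the G2/M panel 39 of 48 genes are higher in the deeper pair and siRIPK2_2 is the lowest of the 4 knockdown libraries for 40.

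MKI67, the proliferation antigen Ki-67 that coats mitotic chromosomes, had 601 and 492 CPM in the deeper pair, against 189.5 and 259.9 CPM in the shallower pair, 264 CPM in siNC and 342 CPM in WT. HMMR, a spindle and hyaluronan-binding protein, had 31.5 and 46.5 CPM in the deeper pair, against 16.8 and 16.6 CPM in the shallower pair, 16.3 CPM in siNC and 28.6 CPM in WT. NUSAP1, which bundles spindle microtubules, had 116 and 114 CPM in the deeper pair, against 31.6 and 63.3 CPM in the shallower pair, 50.2 CPM in siNC and 84.1 CPM in WT. These 3 genes shared a wide spacing, with nearest values 1.89, 1.87 and 1.79-fold apart, and siRIPK2_2 was the lowest library of all for MKI67 and NUSAP1. Among the cyclins and their regulators, CCNB1, the cyclin B1 subunit of the mitotic kinase, was at 166 and 283 CPM in the deeper pair, against 102 and 100.3 CPM in the shallower pair, 209 CPM in siNC and 171 CPM in WT. CCNB2, its paralogue, was at 145 and 156 CPM in the deeper pair, against 52.8 and 84.7 CPM in the shallower pair, 101 CPM in siNC and 107 CPM in WT. NEK2, a kinase that splits centrosomes, was at 68.3 and 65.5 CPM in the deeper pair, against 30.1 and 40.6 CPM in the shallower pair, 39.1 CPM in siNC and 50.3 CPM in WT. For CCNB1 both controls lay above siRIPK2_1 and below siRIPK2_4, and for CCNB2 both controls lay between the pairs. GTSE1, a microtubule-binding regulator of p53, had 146 and 141 CPM in the deeper pair, against 52.9 and 83.5 CPM in the shallower pair. PBK, a mitotic kinase, had 58.3 and 65.4 CPM in the deeper pair, against 28.9 and 33.7 CPM in the shallower pair, and CDCA3, a trigger of mitotic entry through WEE1 degradation, had 111 and 119.5 CPM in the deeper pair, against 41 and 66 CPM in the shallower pair.

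The separation was not evenly shared among the libraries. siRIPK2_2 was the lowest of the 4 for 40 of the 48 genes, siRIPK2_4 the highest for 32 and siRIPK2_1 the highest for 16. Of the 39 separating members, 12 had both controls between the pairs, 4 had both on the deeper side and 3 had both on the shallower side, while the others had the controls apart. The other 9 members overlapped between the pairs. Among them, PLK1, the polo kinase of mitotic entry, had 501 and 257 CPM in the deeper pair, against 227 and 359 CPM in the shallower pair. TOP2A, which untangles sister DNA, had 161 and 302 CPM in the deeper pair, against 128 and 287 CPM in the shallower pair. The count of 39 was 39 again without siRIPK2_2, 43 without siRIPK2_1, 45 without siRIPK2_3 and 44 without siRIPK2_4, with 32.5% to 35.8% of all genes then higher, since fewer libraries have to be ordered.

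BIRC5 (chromosome 17, 78214186 to 78225636) was named with the rule for these libraries and is described for that reason alone. It had 72.1 and 177 CPM in the deeper pair, against 41 and 46.5 CPM in the shallower pair, 18.2 CPM in siNC and 65.9 CPM in WT. siRIPK2_4 was by far the highest library and siNC the lowest, and the nearest values across the pairs were 1.55-fold apart. The distance rested on siRIPK2_1 as the lower deeper library, since without it the log2 distance was 1.93, against 0.63 with it. WT lay between the pairs and siNC below the shallower pair, so the controls did not bracket BIRC5 in the order of RIPK2.

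**Figure D2:**
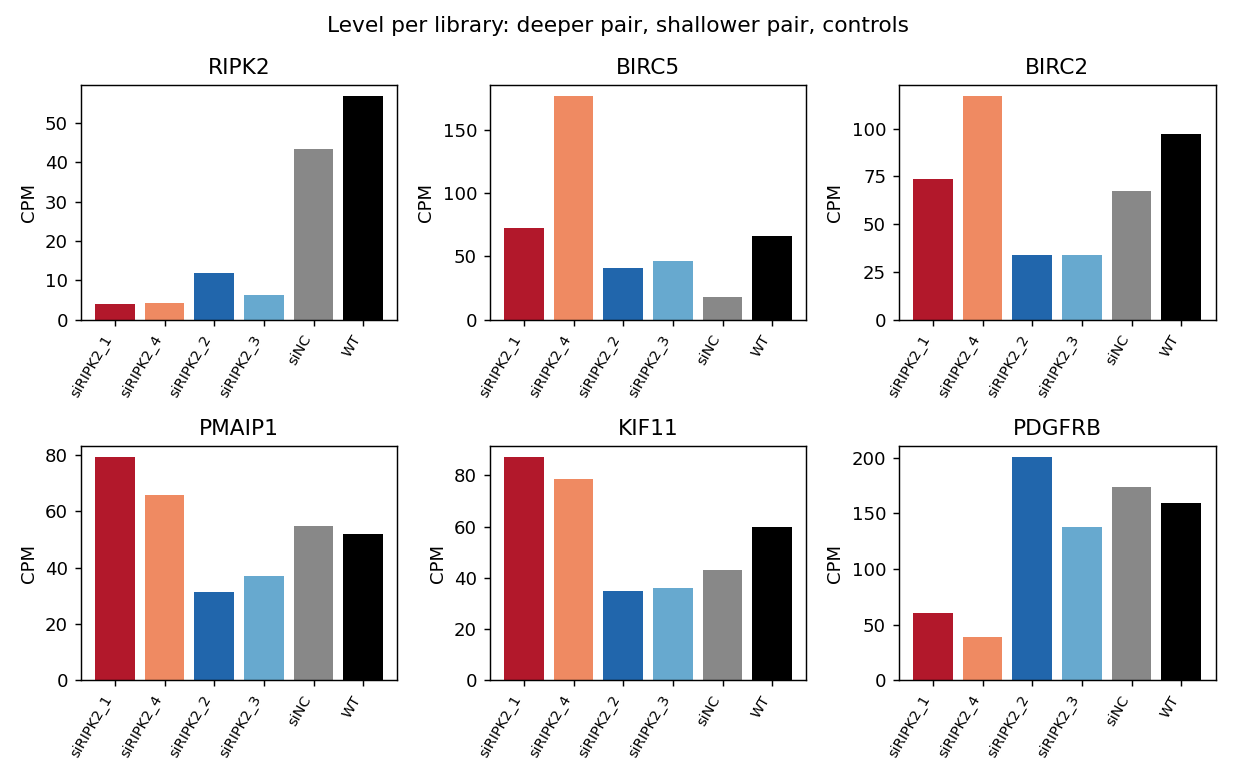
Level in CPM of 6 genes in each library, 1 bar per library without error bars, ordered from the deeper pair through the shallower pair to siNC and WT; each bar starts at 0. RIPK2 is 3.86 and 4.32 CPM in the deeper pair, 11.9 and 6.27 CPM in the shallower pair and above 43 CPM in both controls, while PDGFRB is lower in the deeper pair and BIRC5, BIRC2, PMAIP1 and KIF11 are higher there.

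The chromosomal passenger, kinetochore and checkpoint list, which shares members with the G2/M list, also had mostly higher members. Of its 34 genes, 22 were higher in the deeper pair (64.7% against 17.6% of all genes) and 1 was lower. Of the partners of BIRC5 in the passenger complex, only INCENP is described here. INCENP, the scaffold of the passenger complex, had 141 and 125 CPM in the deeper pair, against 69.5 and 88.7 CPM in the shallower pair, 78.9 CPM in siNC and 99 CPM in WT. NDC80, which grips microtubules at the kinetochore, had 64.1 and 75.4 CPM in the deeper pair, against 27.4 and 36.4 CPM in the shallower pair, 38.3 CPM in siNC and 41.5 CPM in WT. BUB3, a subunit of the spindle checkpoint, had 293 and 337 CPM in the deeper pair, against 156 and 176 CPM in the shallower pair, 287 CPM in siNC and 243 CPM in WT. In all 3 of these genes siRIPK2_2 was the lowest of the 6 libraries. NUF2, the partner of NDC80, had 55.2 and 63 CPM in the deeper pair, against 11.6 and 41.3 CPM in the shallower pair, 38.4 CPM in siNC and 39.8 CPM in WT, where siRIPK2_2 lay more than 3-fold below every other library. CENPF, a large kinetochore protein, did not separate the pairs, with 333 and 131 CPM in the deeper pair, against 114 and 139 CPM in the shallower pair. Of 22 cohesin and condensin genes, 10 were higher (45.5% against 17.6% of all genes) and 0 lower. The condensin subunit NCAPH had 103 and 96.9 CPM in the deeper pair, against 53.3 and 64.3 CPM in the shallower pair, 85.6 CPM in siNC and 79.1 CPM in WT, and ESCO2, which acetylates cohesin, had 13.3 and 11.1 CPM in the deeper pair, against 6.61 and 5.29 CPM in the shallower pair. Separase, ESPL1, had 122 and 98.7 CPM in the deeper pair, against 34 and 79.1 CPM in the shallower pair, where siRIPK2_2 was again the lowest.

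DNA replication genes lay less far apart. Of 50 measured, 24 were higher in the deeper pair (48.0%) and 0 lower, with nearest values a median of 1.13-fold apart, against 1.39-fold for the G2/M members. The median log2 CPM was 5.88 and 5.55 in the deeper pair and 5.12 and 5.65 in the shallower pair, so as a list they did not separate the pairs: siRIPK2_3 was above siRIPK2_4. CLSPN, the adaptor that activates CHK1, had 55 and 39.7 CPM in the deeper pair, against 22.2 and 15.7 CPM in the shallower pair, 42.7 CPM in siNC and 40.6 CPM in WT. POLA1, the catalytic subunit of the priming polymerase, had 62.6 and 36.6 CPM in the deeper pair, against 26.6 and 29.8 CPM in the shallower pair, 45 CPM in siNC and 43 CPM in WT. PCNA, the sliding clamp, had 361 and 348 CPM in the deeper pair, against 192 and 295 CPM in the shallower pair, 342 CPM in siNC and 331 CPM in WT. The deficit was in siRIPK2_2 for most of them, since it was the lowest of the 4 libraries for 39 of the 50 genes, and siRIPK2_1 was the highest for 36. Leaving out siRIPK2_3 gave 45 higher members and leaving out siRIPK2_4 gave 41, while leaving out siRIPK2_1 or siRIPK2_2 gave 25 each. In these settings 32.5% to 35.8% of all genes were higher. The CHR letters occurred in 2 of the 43 replication promoters in the table (4.65%), while the E2F letters TTTCCCGC, on either strand, occurred in 11 of them (25.6%) and in 0 of the 40 G2/M promoters, against 1.66% of all promoters.

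Of 24 subunits and regulators of the DREAM complex, which holds these promoters down in resting cells, and of G1, 7 were higher in the deeper pair and 4 lower. These shares were 29.2% and 16.7%, against 17.6% and 16.0% of all genes. LIN54, the subunit that reads the CHR, had 30.0 and 25.5 CPM in the deeper pair, against 18.7 and 19.8 CPM in the shallower pair, 23.5 CPM in siNC and 21.8 CPM in WT. TFDP1, the partner of E2F factors, had 177 and 159 CPM in the deeper pair, against 104 and 112 CPM in the shallower pair, 127 CPM in siNC and 155 CPM in WT. FOXM1, which binds the MuvB core in G2, had 159 and 176 CPM in the deeper pair, against 66.3 and 137 CPM in the shallower pair, 302 CPM in siNC and 148 CPM in WT, where siNC was higher than every knockdown library. The lower members were the inhibitor CDKN1A, RBL2 (p130), RBBP4 and E2F4. CDKN1A, or p21, had 60.1 and 59.3 CPM in the deeper pair, against 79.7 and 74.8 CPM in the shallower pair, 114 CPM in siNC and 58.4 CPM in WT, and RBL2, the pocket protein of DREAM in resting cells, had 17.9 and 21.9 CPM in the deeper pair, against 36.7 and 26 CPM in the shallower pair, 29 CPM in siNC and 34.2 CPM in WT. MYBL2, the B-MYB that joins MuvB in S phase, overlapped, with 184 and 90.4 CPM in the deeper pair, against 37.4 and 106 CPM in the shallower pair. In these poly(A)-selected libraries, which miss RNA without a tail, only 4 of 21 listed replication-dependent histone genes reached 5 CPM, 1 of them higher. H2AC6 had 8.55 and 40.9 CPM in the deeper pair, against 7.02 and 5.36 CPM in the shallower pair, 12.5 CPM in siNC and 13.5 CPM in WT. siRIPK2_4 was the highest of the 4 libraries for all 4 of them. Of 16 tubulin genes and tubulin-folding cofactors, 7 were higher (43.8%) and 1 lower (6.25%), against 17.6% and 16.0% of all genes. TUBA1A, which overlaps the gene TUBA1C, had 564 and 652 CPM in the deeper pair, against 237 and 423 CPM in the shallower pair.

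**Figure D3:**
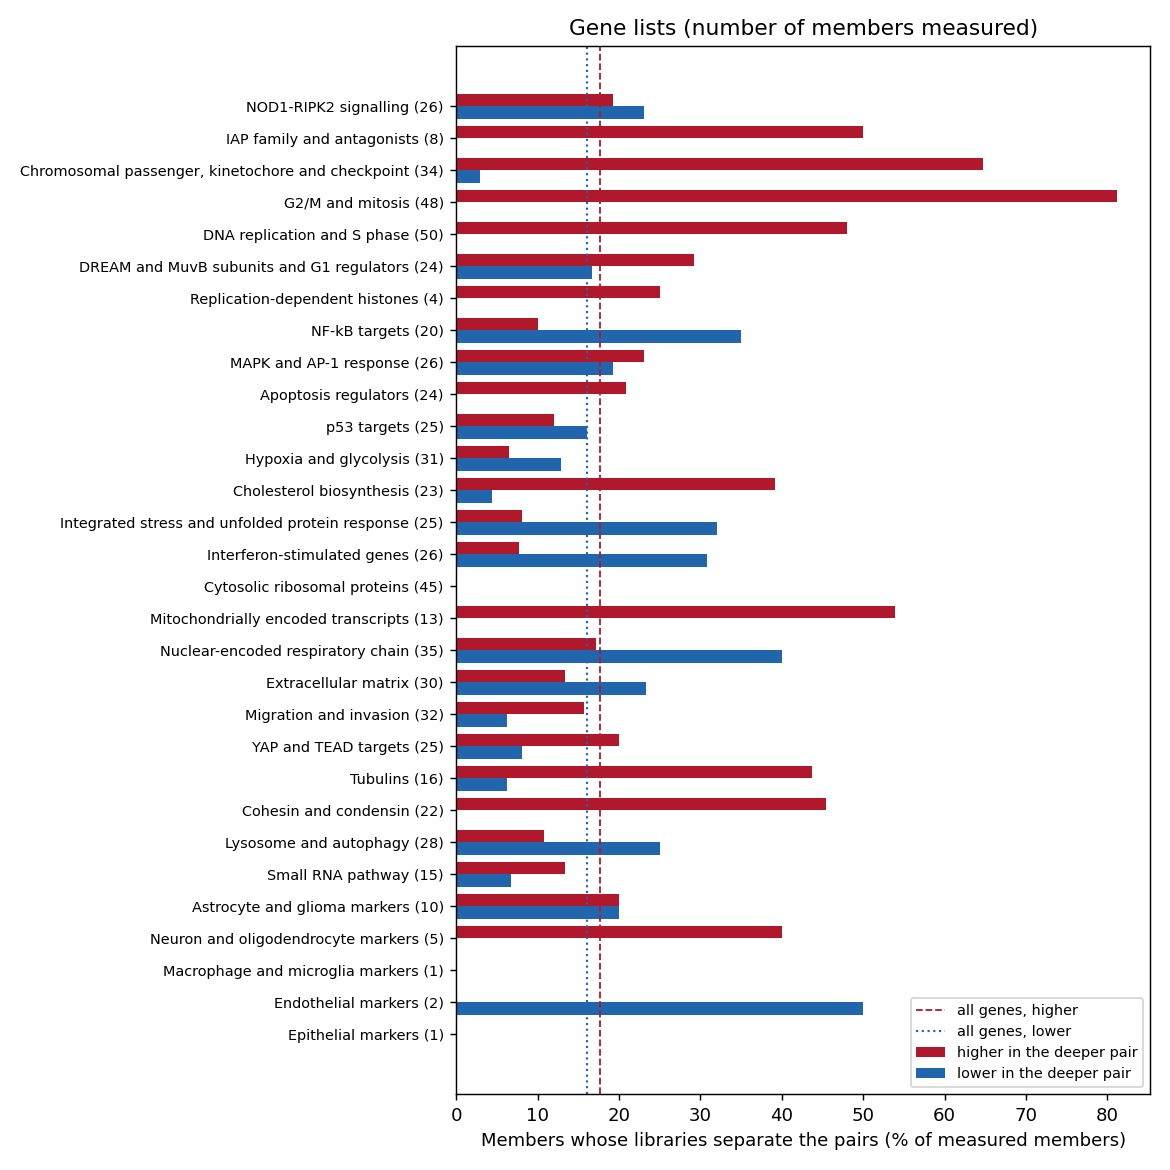
Share of the measured members of each gene list that were higher (red) or lower (blue) in the deeper pair, in percent, with the number measured in brackets and the shares over all 10653 genes as vertical lines (17.6% and 16.0%). The G2/M list reaches 81.2% higher and the cytosolic ribosomal proteins 0.0% in both directions; lists of 10 genes or fewer rest on very few members.

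Of 26 genes of NOD1-RIPK2 signalling, 5 were higher in the deeper pair (19.2%) and 6 lower (23.1%), RIPK2 among the lower, which is near the shares over all genes. The sensor NOD1 had 16.4 and 8.99 CPM in the deeper pair, against 18.6 and 19 CPM in the shallower pair, 19.4 CPM in siNC and 16.9 CPM in WT. MAP3K7, which encodes TAK1, had 51.4 and 51.3 CPM in the deeper pair, against 38.1 and 39.1 CPM in the shallower pair, 45.5 CPM in siNC and 42.7 CPM in WT, and CHUK, the IKK alpha kinase, had 26.5 and 23 CPM in the deeper pair, against 34.2 and 39.1 CPM in the shallower pair, 32.8 CPM in siNC and 30.5 CPM in WT. The regulatory subunit IKBKG, or NEMO, was nearly level, with 35.7 and 36.1 CPM in the deeper pair, against 34.8 and 30.0 CPM in the shallower pair. For NOD1, MAP3K7, CHUK and IKBKG the nearest values were at most 1.31-fold apart. CYLD, a deubiquitinase that trims the chains, had 41.6 and 57 CPM in the deeper pair, against 23.1 and 21.8 CPM in the shallower pair, 63.4 CPM in siNC and 46.7 CPM in WT. The ubiquitin ligase XIAP overlapped, with 40.0 and 41.4 CPM in the deeper pair, against 53 and 29.9 CPM in the shallower pair. BIRC2, the cIAP1 ligase, showed the widest distance of the list, with 73.5 and 117 CPM in the deeper pair, against 33.6 and 33.8 CPM in the shallower pair, 67.2 CPM in siNC and 97 CPM in WT. Its nearest values were 2.17-fold apart, with siNC between the pairs and WT among the deeper values.

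Of 8 members of the inhibitor of apoptosis family and their antagonists, 4 were higher and 0 lower, namely BIRC2, BIRC5, BIRC3 and DIABLO. BIRC3, the cIAP2 ligase, had 27.2 and 19.7 CPM in the deeper pair, against 19.4 and 15.6 CPM in the shallower pair, 45.3 CPM in siNC and 13 CPM in WT, and DIABLO, a mitochondrial antagonist, had 55.4 and 56 CPM in the deeper pair, against 37.7 and 52.3 CPM in the shallower pair. Their nearest values were 1.02-fold and 1.06-fold apart, far less than in BIRC2. Among 24 apoptosis regulators, 5 were higher (20.8%) and 0 lower. PMAIP1, the BH3-only protein NOXA, had 79.2 and 65.7 CPM in the deeper pair, against 31.5 and 36.9 CPM in the shallower pair, 54.7 CPM in siNC and 51.7 CPM in WT. Both controls lay between the pairs, and the nearest values were 1.78-fold apart. The death receptor FAS had 34.9 and 41.3 CPM in the deeper pair, against 26.6 and 30.3 CPM in the shallower pair, and BCL2, a survival factor, had 19.4 and 16.4 CPM in the deeper pair, against 8.97 and 15.8 CPM in the shallower pair. MCL1 overlapped, with 263 and 146 CPM in the deeper pair, against 113 and 215 CPM in the shallower pair.

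NF-kB targets, the outlet of the pathway, were lower in the deeper pair for 7 of 20 genes (35.0%) and higher for 2 (10.0%). The distances were small, a median of 1.11-fold. NFKBIA, the inhibitor IkB alpha, had 49.4 and 65.8 CPM in the deeper pair, against 73.7 and 74.2 CPM in the shallower pair, 101 CPM in siNC and 51.6 CPM in WT. TNFAIP3, the A20 enzyme that shuts the pathway off and is also counted in the signalling list, had 58.2 and 60.2 CPM in the deeper pair, against 71.5 and 91.2 CPM in the shallower pair, 137 CPM in siNC and 56.6 CPM in WT. CXCL3, a chemokine, had 8.15 and 10.9 CPM in the deeper pair, against 13.1 and 12.4 CPM in the shallower pair, 29.6 CPM in siNC and 10.2 CPM in WT. In these 3 genes siNC was the highest library and WT lay below the shallower pair, so the controls lay further apart than the nearest values of the pairs. CXCL8, the chemokine IL-8, overlapped, with 15.6 and 25.2 CPM in the deeper pair, against 50.9 and 14.2 CPM in the shallower pair. Leaving out siRIPK2_2 gave 7 lower members, or 35.0% against 35.5% of all genes. There were 13 lower members (65.0% against 31.6%) without siRIPK2_1, 14 (70.0% against 30.5%) without siRIPK2_3 and 11 (55.0% against 33.6%) without siRIPK2_4.

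Of 26 genes of the MAPK and AP-1 response, 6 were higher (23.1%) and 5 lower (19.2%). EGR1, an immediate early transcription factor, had 119 and 113 CPM in the deeper pair, against 57.2 and 27.9 CPM in the shallower pair, 69.4 CPM in siNC and 79.3 CPM in WT. SPRY4, a feedback inhibitor of receptor tyrosine kinases, had 56 and 64.5 CPM in the deeper pair, against 40.0 and 25.6 CPM in the shallower pair, 45.6 CPM in siNC and 40.7 CPM in WT. MYC had 24.2 and 20.3 CPM in the deeper pair, against 36.5 and 33.1 CPM in the shallower pair, 30.4 CPM in siNC and 24.3 CPM in WT, and the phosphatase DUSP1 had 51.3 and 73.4 CPM in the deeper pair, against 89.4 and 140.2 CPM in the shallower pair, both lower in the deeper pair. Of 25 p53 targets, 3 were higher and 4 lower, among them PHLDA3, an inhibitor of AKT, with 174 and 173 CPM in the deeper pair, against 241 and 234 CPM in the shallower pair, 219 CPM in siNC and 181 CPM in WT. GADD45A, a growth arrest gene, had 147 and 147 CPM in the deeper pair, against 182 and 213 CPM in the shallower pair.

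Nuclear-encoded respiratory chain genes were the list with the largest share of lower members among those with at least 5 genes measured: 14 of 35 (40.0%), against 6 higher (17.1%). COX7C, a subunit of cytochrome c oxidase, had 21.4 and 42.8 CPM in the deeper pair, against 82.1 and 62.9 CPM in the shallower pair, 87.9 CPM in siNC and 73.6 CPM in WT. NDUFA1, a subunit of complex I, had 12.1 and 25 CPM in the deeper pair, against 34.9 and 28.9 CPM in the shallower pair, 28.8 CPM in siNC and 24.1 CPM in WT. UQCRH, the hinge protein of complex III, had 97.3 and 84.1 CPM in the deeper pair, against 119.5 and 138 CPM in the shallower pair, 121 CPM in siNC and 99.9 CPM in WT. siRIPK2_1 was the lowest of the 4 libraries for 20 of the 35 genes and siRIPK2_3 the highest for 18, and the median distance of the 14 was 1.16-fold. Leaving out siRIPK2_1 gave 14 lower members (40.0% against 31.6% of all genes) and leaving out siRIPK2_3 gave 16 (45.7% against 30.5%). There were 23 (65.7% against 35.5%) without siRIPK2_2 and 22 (62.9% against 33.6%) without siRIPK2_4. Of the 13 mitochondrially encoded transcripts, 7 were higher and 0 lower, by at most 1.12-fold, which was the distance for MT-ATP6, with 722 and 633 CPM in the deeper pair, against 517 and 565 CPM in the shallower pair. Those 7 were 53.8% of the list, against 17.6% of all genes. All 13 were higher without siRIPK2_4, where 35.1% of all genes were higher. When counts were scaled by library total alone, 2 of the 13 were higher (15.4% against 15.5% of all genes). With that scaling the list was therefore at the background. siRIPK2_1 had the largest mitochondrial share of counts, 4.71%, against 4.13% in siRIPK2_4, 4.10% in siRIPK2_2 and 4.12% in siRIPK2_3. Cytosolic ribosomal proteins separated the pairs in 0 of 45 genes with all 4 libraries, a count that differed widely with 1 library left out. Without siRIPK2_2, 43 of 45 were lower in the deeper pair (95.6% against 35.5% of all genes), without siRIPK2_4 27 were lower (60.0% against 33.6%), and without siRIPK2_3 16 were higher (35.6% against 35.8%). Their median log2 CPM was 8.77 and 9.17 in the deeper pair and 8.77 and 9.52 in the shallower pair, and siRIPK2_3 was the highest library for 43 of the 45.

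Stress and interferon genes had more lower than higher members with all 4 libraries. Of 25 genes of the integrated stress and unfolded protein responses, 8 were lower (32.0%) and 2 higher (8.0%). ATF4, the transcription factor at the centre of the integrated stress response, had 491 and 574 CPM in the deeper pair, against 699 and 862 CPM in the shallower pair, 669 CPM in siNC and 622 CPM in WT. TRIB3, one of its targets, had 108 and 235 CPM in the deeper pair, against 448 and 273 CPM in the shallower pair, 252 CPM in siNC and 214 CPM in WT. XBP1, a factor of the unfolded protein response, had 58.1 and 84.5 CPM in the deeper pair, against 158 and 102 CPM in the shallower pair, 141 CPM in siNC and 194 CPM in WT. siRIPK2_1 was the lowest of the 6 libraries for each of these 3. PDIA4, an endoplasmic reticulum chaperone, went the other way, with 443 and 544 CPM in the deeper pair, against 333 and 231 CPM in the shallower pair, 500.1 CPM in siNC and 611 CPM in WT. Of 26 interferon-stimulated genes, 8 were lower (30.8%) and 2 higher (7.69%). OAS1, the sensor of double-stranded RNA, had 13.3 and 16.2 CPM in the deeper pair, against 35.5 and 27.3 CPM in the shallower pair, 25.2 CPM in siNC and 22 CPM in WT, and IFI6 had 8.98 and 11.3 CPM in the deeper pair, against 16.4 and 17.3 CPM in the shallower pair. Both controls of OAS1 lay between the pairs. Both counts depended on the libraries. Without siRIPK2_2 there were 10 higher and 8 lower stress genes (40.0% and 32.0%, against 32.6% and 35.5% of all genes), and 10 higher and 10 lower interferon genes (38.5% each). Without siRIPK2_3 there were 17 lower stress genes and 18 lower interferon genes (68.0% and 69.2%, against 30.5% of all genes). Lower members numbered 10 in each list without siRIPK2_1 (40.0% of stress and 38.5% of interferon genes, against 31.6% of all genes). Without siRIPK2_4 they were 13 stress genes and 11 interferon genes (52.0% and 42.3%, against 33.6% of all genes).

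Cholesterol synthesis genes were higher in the deeper pair for 9 of 23 (39.1%) and lower for 1. INSIG1, the sterol sensor that holds back SREBP, had 42.2 and 26.5 CPM in the deeper pair, against 16.2 and 20.8 CPM in the shallower pair, 41.3 CPM in siNC and 60.7 CPM in WT. MSMO1, a sterol methyl oxidase, had 38.5 and 28.6 CPM in the deeper pair, against 16.6 and 26.2 CPM in the shallower pair, 47.4 CPM in siNC and 34.8 CPM in WT. SC5D, a late desaturase, was the lower one, with 6.68 and 10.8 CPM in the deeper pair, against 14.7 and 14.8 CPM in the shallower pair, 6.58 CPM in siNC and 18.6 CPM in WT. For 7 of the 9 higher genes both controls lay on the deeper side, above both shallower values, and in INSIG1 and MSMO1 siRIPK2_4 was below both controls as well. The count was 6 with scaling by library total (26.1% against 15.5% of all genes). With 1 library left out it was 11 to 14 (47.8% to 60.9%, against 32.5% to 35.8% of all genes). Of 31 hypoxia and glycolysis genes, 2 were higher (6.45%) and 4 lower (12.9%), against 17.6% and 16.0% of all genes. HK2, a hexokinase, had 114 and 126 CPM in the deeper pair, against 166 and 140.3 CPM in the shallower pair. Its level was 207 CPM in siNC and 171 CPM in WT. Without siRIPK2_1, 23 of the 31 were lower (74.2% against 31.6% of all genes), and without siRIPK2_4, 15 were higher and 6 lower (48.4% and 19.4%, against 35.1% and 33.6%). Of 28 lysosome and autophagy genes, 3 were higher (10.7%) and 7 lower (25.0%), against 17.6% and 16.0% of all genes. ULK1, the kinase that starts autophagy, had 63.2 and 57.5 CPM in the deeper pair, against 128 and 71.6 CPM in the shallower pair. Its level was 69.3 CPM in siNC and 92.9 CPM in WT. Without siRIPK2_2 the lysosome and autophagy list had 10 higher and 10 lower members (35.7% each, against 32.6% and 35.5% of all genes), near the background.

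Of 32 migration and invasion genes, 5 were higher (15.6%) and 2 lower (6.25%), against 17.6% and 16.0% of all genes. Neither share exceeded that of all genes. CDH2, N-cadherin, had 352 and 293 CPM in the deeper pair, against 199.8 and 139.6 CPM in the shallower pair, 228 CPM in siNC and 226 CPM in WT. MMP2, a gelatinase, was lower, with 941 and 834 CPM in the deeper pair, against 1217 and 1172 CPM in the shallower pair, 1576 CPM in siNC and 1311 CPM in WT. TIMP2, the inhibitor of MMP2, was higher by 2.72-fold, with 415 and 417 CPM in the deeper pair, against 152 and 113 CPM in the shallower pair, 554 CPM in siNC and 532 CPM in WT, and both controls lay above all 4 knockdown libraries. The gene overlaps CEP295NL, and reads of overlapping or antisense genes cannot be told apart because the strand setting of the counting is not given in the sources used here. Of 30 extracellular matrix genes, 4 were higher (13.3%) and 7 lower (23.3%), against 17.6% and 16.0% of all genes. THBS1, thrombospondin 1, which overlaps FSIP1, had 126 and 129.6 CPM in the deeper pair, against 60.4 and 62.1 CPM in the shallower pair, 78.1 CPM in siNC and 48.1 CPM in WT. COL6A1, a collagen VI chain, had 857 and 892 CPM in the deeper pair, against 1095 and 959.9 CPM in the shallower pair, 1784 CPM in siNC and 1135 CPM in WT, where both controls stood above all 4. FN1, fibronectin, separated by only 1.02-fold, with 2745 and 7074 CPM in the deeper pair, against 7184 and 9854 CPM in the shallower pair, 9026 CPM in siNC and 8357 CPM in WT. Of 25 YAP and TEAD targets, 5 were higher (20.0%) and 2 lower (8.0%), against 17.6% and 16.0% of all genes. IGFBP3, a binder of insulin-like growth factors, had 382 and 419 CPM in the deeper pair, against 217 and 188 CPM in the shallower pair. Its level was 219 CPM in siNC and 252 CPM in WT. AJUBA, a LIM scaffold protein, had 45.4 and 28.7 CPM in the deeper pair, against 79.1 and 73.7 CPM in the shallower pair. Its level was 47.1 CPM in siNC and 62.5 CPM in WT.

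Genes of the small RNA machinery, through which siRNAs act, separated the pairs in 3 of 15 cases. Of these, 2 were higher (13.3%) and 1 lower (6.67%), against 17.6% and 16.0% of all genes. AGO2, the slicing Argonaute, had 210.0 and 192 CPM in the deeper pair, against 104 and 166 CPM in the shallower pair, 187 CPM in siNC and 123 CPM in WT. DGCR8, the partner of DROSHA, had 99.3 and 97.8 CPM in the deeper pair, against 66.2 and 74.3 CPM in the shallower pair, 94.2 CPM in siNC and 88.1 CPM in WT, and the effector TNRC6A had 206 and 227 CPM in the deeper pair, against 234 and 299 CPM in the shallower pair. Among cell type markers, 2 of 10 astrocyte and glioma genes were higher and 2 lower (20.0% each, against 17.6% and 16.0% of all genes). SOX2, a stem cell factor, had 14 and 4.76 CPM in the deeper pair, against 3.94 and 0.908 CPM in the shallower pair, 0.748 CPM in siNC and 2.58 CPM in WT, with siRIPK2_1 apart from all others. GJA1, the gap junction protein of astrocytes, had 226 and 207 CPM in the deeper pair, against 268 and 265 CPM in the shallower pair, 196 CPM in siNC and 189 CPM in WT. Of 5 measured neuron and oligodendrocyte genes, 2 were higher and 0 lower. Of 2 measured endothelial genes, 1 was lower, TIE1, with 9.64 and 8.20 CPM in the deeper pair, against 12.8 and 14.6 CPM in the shallower pair. The only measured macrophage gene and the only measured epithelial gene overlapped.

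Over all genes, in a list or not, MAP1S (chromosome 19, 17719242 to 17734516), a microtubule-associated protein linked to autophagy, had the largest distance of the higher genes, 3.64-fold, with 105 and 88.9 CPM in the deeper pair, against 22 and 24.4 CPM in the shallower pair, 66.1 CPM in siNC and 20.1 CPM in WT. FILIP1L, a filamin-binding relative of FILIP1, had 18.8 and 18.6 CPM in the deeper pair, against 3.35 and 5.71 CPM in the shallower pair, 3.77 CPM in siNC and 6.99 CPM in WT. ZCCHC24 had 119 and 129 CPM in the deeper pair, against 42.3 and 38.1 CPM in the shallower pair, 65.7 CPM in siNC and 117.8 CPM in WT. For MAP1S and FILIP1L the controls lay apart, one between the pairs and the other among or below the shallower values. BORA, which helps Aurora A to activate PLK1 and overlaps DIS3, had 14.5 and 14.6 CPM in the deeper pair, against 4.81 and 6.07 CPM in the shallower pair, 7.14 CPM in siNC and 6.16 CPM in WT. SAPCD2, a regulator of spindle orientation, had 181 and 169 CPM in the deeper pair, against 61.8 and 76.6 CPM in the shallower pair, 109 CPM in siNC and 103 CPM in WT. ABCB10, a mitochondrial transporter, had 28.3 and 30.3 CPM in the deeper pair, against 10.9 and 9.32 CPM in the shallower pair, 33.8 CPM in siNC and 28.3 CPM in WT. The others among the 11 described here were EEIG2, GCNT2, OLFML2B, CDH4 and TIMP2, at 2.21-fold or more, and TIMP2 also belongs to the migration and invasion list. Both controls lay between the pairs for 7 of these 11 genes.

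**Figure D4:**
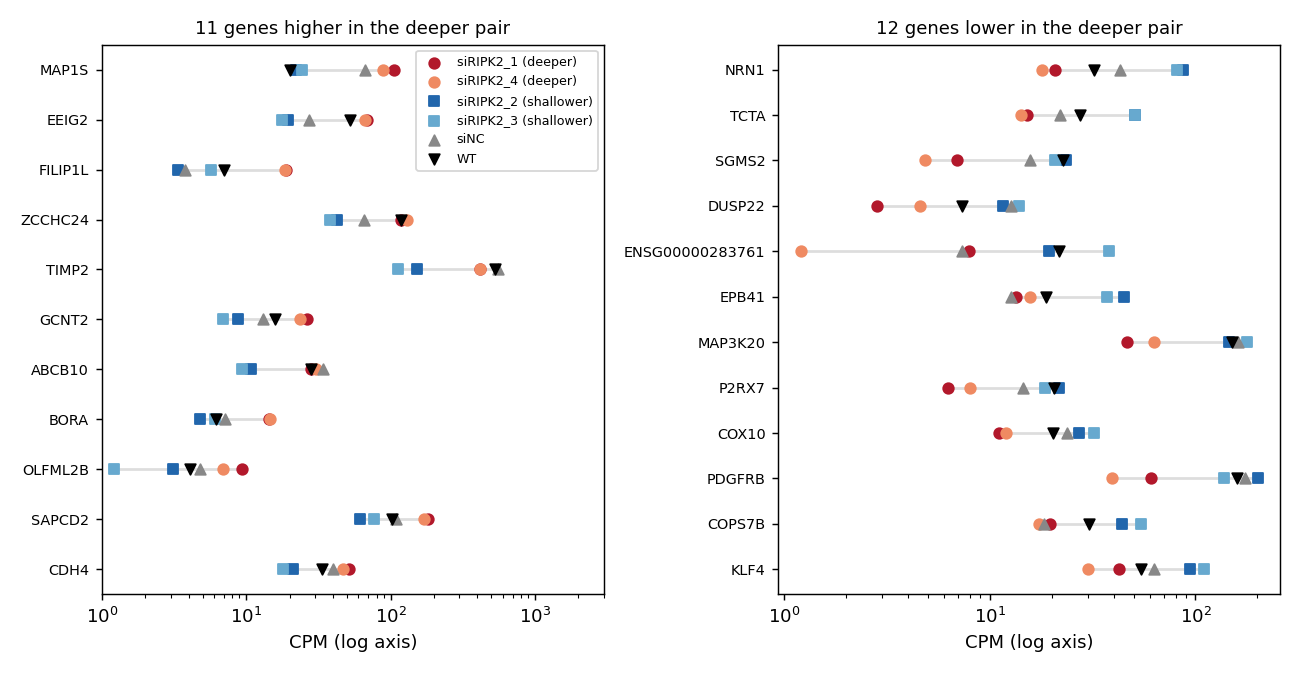
Genes with the largest distance between the pairs, 11 higher and 12 lower, with 1 point per library in CPM on a log axis; circles are the deeper pair, squares the shallower pair and triangles the controls. MAP1S spans 88.9 CPM or more in the deeper pair to 24.4 CPM or less in the shallower pair, and NRN1 20.8 CPM or less to 81.2 CPM or more.

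NRN1 (chromosome 6, 5997999 to 6007605), neuritin, a surface protein that promotes neurite growth, had the largest distance of the lower genes, 3.90-fold, with 20.8 and 18 CPM in the deeper pair, against 87.3 and 81.2 CPM in the shallower pair, 43.1 CPM in siNC and 32 CPM in WT. SGMS2, a sphingomyelin synthase, had 6.94 and 4.87 CPM in the deeper pair, against 23.4 and 20.8 CPM in the shallower pair, 15.7 CPM in siNC and 22.7 CPM in WT. PDGFRB (chromosome 5, 150113837 to 150155872), the receptor for platelet-derived growth factor B, had 60.9 and 39.1 CPM in the deeper pair, against 201 and 138 CPM in the shallower pair, 173 CPM in siNC and 159 CPM in WT. For PDGFRB and MAP3K20 both controls were with the shallower pair, so the deeper pair was the one that departed from the controls. MAP3K20, the ZAK kinase of the ribotoxic stress response, had 46.4 and 62.7 CPM in the deeper pair, against 146 and 179 CPM in the shallower pair, 160.2 CPM in siNC and 151 CPM in WT. P2RX7, an ATP-gated channel, had 6.28 and 7.98 CPM in the deeper pair, against 21.8 and 18.4 CPM in the shallower pair, 14.4 CPM in siNC and 20.6 CPM in WT. KLF4, a transcription factor of differentiation, had 42.4 and 30.0 CPM in the deeper pair, against 93.8 and 110.1 CPM in the shallower pair, 63 CPM in siNC and 54.1 CPM in WT. The others of the 12 were TCTA, DUSP22, EPB41, COX10, COPS7B and ENSG00000283761, of which TCTA overlaps RHOA, EPB41 overlaps TMEM200B, COPS7B overlaps PDE6D and ENSG00000283761 overlaps MFSD14A and SLC35A3. Both controls lay between the pairs for 4 of the 12.

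A stricter order was also read, with the 6 libraries of a gene strictly in the order of their RIPK2 level: siRIPK2_1, siRIPK2_4, siRIPK2_3, siRIPK2_2, siNC and WT. It held for 10 genes, RIPK2 included (0.0939%), and the reverse order for 10 genes (0.0939%). HSD17B12, an enzyme of very long chain fatty acid elongation, had the largest distance between the pairs among these first 10 genes, 1.72-fold against 1.45-fold for RIPK2. It had 7.72 and 8.14 CPM in siRIPK2_1 and siRIPK2_4, 14 CPM in siRIPK2_3, 18.8 CPM in siRIPK2_2, 20.0 CPM in siNC and 23.0 CPM in WT. VSTM4, a membrane protein, had 4.87 and 10.9 CPM in siRIPK2_1 and siRIPK2_4, 15.4 CPM in siRIPK2_3, 16.8 CPM in siRIPK2_2, 17.3 CPM in siNC and 18.4 CPM in WT. SELENOM, ALKBH7 and IPP followed with nearest values 1.23, 1.22 and 1.15-fold apart. In the reverse order, SF3A1, a splicing factor of the U2 particle, had the largest distance, 1.16-fold, with 303 and 299 CPM in the deeper pair, against 256 and 257 CPM in the shallower pair, 232 CPM in siNC and 229 CPM in WT. HAS3, a hyaluronan synthase, had 15.5 and 8.86 CPM in the deeper pair, against 4.30 and 8.42 CPM in the shallower pair, 4.18 CPM in siNC and 3.55 CPM in WT, and DAPK1, a death-associated kinase, had 29.8 and 21.6 CPM in the deeper pair, against 20.0 and 21.2 CPM in the shallower pair, 18.7 CPM in siNC and 18.3 CPM in WT. In HAS3 and DAPK1 siRIPK2_1 was well above the other 5 libraries, which lay close together in DAPK1.

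The comparison that does not use the split is that of all 4 siRIPK2 libraries with both controls. There edgeR's quasi-likelihood test called 0 of 13901 genes at an adjusted p of 0.05 (0.0%), 355 had an unadjusted p under 0.05, and DESeq2 called 11, RIPK2 among them. In simulated counts with 50 genes changed at each fold, up to 16-fold, edgeR recovered 4% of 2-fold and 72% of 4-fold changes, with 13 false calls. It also recovered 94% of 8-fold changes there, yet RIPK2 itself did not pass in the data. The simulated rates therefore need not hold for these libraries. Either way, 0 calls do not show that genes were unchanged. RIPK2 was lower by a log2 fold change of -2.93, in 4 of 4 libraries, with an edgeR p of 8.17e-05 and a Benjamini-Hochberg adjusted p of 0.739, against an adjusted p of 9.52e-07 in DESeq2. BIRC5 had a log2 fold change of 1.00 in edgeR with an adjusted p of 0.9998, and 2 of 4 libraries were above both controls. That fold change depended on the libraries used. It was 0.34 without siRIPK2_4, and in a fit with 3 groups 2.20 against siNC and 0.35 against WT. Of the 223 genes named by the rule for named genes, 0 passed in edgeR and 9 had an unadjusted p under 0.05, among them FAS, INSIG1 and COL6A1. Without siRIPK2_1 or without siRIPK2_2, edgeR called 2 genes each, and without siRIPK2_2 RIPK2 passed with a log2 fold change of -3.38 and an adjusted p of 0.0431.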

How the data were processed

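RNA was measured in 6 libraries of U118 cells, 4 of them siRIPK2 and 1 each of siNC and WT. The values are raw counts per Ensembl gene, deposited by the authors as 1 table. The submitters' processing notes name FastQC, Trimmomatic, HISAT2, bedtools and GRCh38, while annotation and strand setting are not given there. Symbols, coordinates and lengths came from GENCODE release 29, in which 20224 of the 20263 IDs occur, and 5320 overlap another listed gene. Counts were scaled to CPM with TMM factors (edgeR 4.0.16, R 4.3.3) over the genes kept by filterByExpr with a minimum count of 10. A level of 3 counts, the detection floor, corresponds to 0.0664 to 0.0935 CPM, and floors cover counting error only. No library was a duplicate of another: the chi-square per degree of freedom over genes was 77.1 to 223.6 for the 15 pairs of libraries.

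A gene separated the pairs where both values of one lay above both of the other, and the distance is the ratio of the nearest values. No mean over a pair was formed, since the pairs were chosen by a measured value. Named are RIPK2, BIRC5, the 12 genes with the largest distance in each direction, up to 6 genes in each direction whose libraries follow RIPK2 in order, up to 10 separating members of each of 30 lists and well-known members that overlap. The pairs, members and lists were chosen with earlier results of these data known. All 4 siRIPK2 libraries were set against both controls with edgeR's quasi-likelihood test (4 residual degrees of freedom, Benjamini-Hochberg adjustment), and DESeq2 1.42.0 was an alternative. The edgeR step and the distance were checked on simulated data. Alternatives were other scalings, a length and GC trend removed (mgcv 1.9.3), other CPM minimums and each siRIPK2 library left out. Promoters were taken from a RefSeq table of GRCh38.p14. The first listed promoter of each symbol was kept, which left 27305 of 35116. A few single-gene results are not reported here.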

Additional observations from a re-analysis of the deposited data

Results flagged for a closer look

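For 223 named genes and 30 list medians, the 4 siRIPK2 libraries were searched for 1 library whose distance to its nearest neighbour exceeded Dixon's 95% critical value as a share of their whole range. In values not chosen beforehand, chance alone gives about 1 in 20 such cases. The named genes were chosen by these same 4 libraries, so that rate does not hold for them. There were 13 such cases. siRIPK2_1 stood apart as the highest library for DAPK1 (0.836 of the range), SPRY1 (0.830), FDFT1 (0.835), ATP5F1A (0.848) and SMC3 (0.913), and as the lowest for TAB2 (0.843), FBN2 (0.864) and TBCB (0.875). siRIPK2_4 was the highest for H2AC6 (0.910), at 40.9 CPM against 5.36 to 8.55 CPM in the others, and for MMP1 (0.908). siRIPK2_2 was the highest for DDIT4 (0.944), and siRIPK2_3 for ZEB2 (0.830) and BECN1 (0.866). In these 13 genes the nearest values across the pairs were 1.23-fold apart at most, for SPRY1. A small distance follows from the shape, since the partner of the library that stood apart lay near the other pair. ATP5F1A, FBN2, TBCB and BECN1 overlap other genes.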

How the results depend on the processing

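With 1 of the 4 libraries left out, fewer values have to be ordered, and 3464 to 3811 genes were higher and 3253 to 3777 lower. DNA replication then had 25 to 45 higher members and the respiratory chain 14 to 23 lower members. Without a CPM minimum 2606 genes were lower. Scaling by library total gave 1659 higher and 1951 lower genes (15.5% and 18.3%), against 1874 and 1703 with TMM. The G2/M count was 37 to 45 higher members under every alternative. Of 600 recomputed list counts, 436 stayed within 1.5 times and 164 moved further, and of 1561 recomputed distances of named genes 0 reversed, 140 moved by more than the spread between libraries and 40 came to overlap. With a library left out, the distance of a separating gene can only stay or widen. Those settings could therefore not reverse a named gene or make it overlap, and only the other scalings and the removed trend could. Against both controls, edgeR called 0 to 2 genes with 1 library left out and DESeq2 called 11. RIPK2 passed in DESeq2 and, without siRIPK2_2, in edgeR at a log2 fold change of -3.38. No paired analysis was possible because siNC and WT have 1 library each and share fewer than 2 replicate numbers with siRIPK2. The causes of these shifts were not tested. Depth limits little here, since 5 CPM is more than 100 counts in each library, whereas the design has 2 libraries on each side of the split.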
